A study of Mus musculus with 4 samples.

Results

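Within the infarct zone of mouse heart sections, 451 spots with messenger RNA of proliferation genes, here called cycling spots, were set against 451 spots in which none of that RNA was counted, here called zero spots. Both were chosen by their counts of 5 genes, Mki67, Top2a, Cdk1, Ccnb1 and Birc5, from 5909 spots of at least 500 unique molecular identifiers (UMIs, each 1 captured RNA molecule) lying under tissue in 4 Visium sections. A Visium spot is a small round area of the section that can cover several cells, so a cycling spot is a place with such RNA and not a single dividing cell. The mice carried the Collagen1a1-GFP+ reporter, a GFP gene driven by a collagen promoter that is active in fibroblasts, in every group including the control, and were 8 to 12 weeks old. One section each came from an uninjured control heart and a heart taken 3 days post infarction (3 dpi), both labelled female. At 5 dpi there were 2 hearts, called here by their labels the female-labelled and the male-labelled section. Infarction was made by tying the left anterior descending coronary artery, and the control has no infarct. The hearts are the replicates, so every comparison of the spot classes rests on 3 sections, with only 1 of them at 3 dpi.

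The libraries held between 6372017 and 12130474 UMIs, with medians of 4980.5 to 6937 UMIs per kept spot. The female-labelled section held 718 UMIs of 4 Y-linked genes and the male-labelled section 1, so the sections are named here by their labels only. In the male-labelled section, 623 spots off the tissue mask were left out.

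Cells that enter the cell cycle first copy their DNA in S phase, with enzymes that make nucleotides and open the DNA, and then build a spindle and divide in G2 and M phase. In the days after an infarct, dead heart muscle is cleared by neutrophils and macrophages, and fibroblasts and vessel cells multiply while the scar is laid down. Mki67 is a chromosome surface protein of cycling cells, Top2a untangles DNA, Cdk1 and its partner Ccnb1 start mitosis, and Birc5 belongs to the complex that guides chromosome separation. Their messenger RNAs are highest late in the cycle, and such genes often carry CCAAT boxes and a cell cycle homology region (CHR) before their start.

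The stretches of 250 bases before the start of the 5 selecting genes are shown because these genes define the classes (RefSeq, build GRCm38.p6, 5′ to 3′ on the strand of the gene). Capitals mark the CCAAT box wherever it stands. They also mark the CHR, searched as TTTGAA and with its variant written TTCGAA instead, and a related word, spelled TTTAAA here. Each was read on both strands. They lie at chr7:135716380-135716629, minus strand, for Mki67, at chr11:99024190-99024439, minus strand, for Top2a, at chr10:69352913-69353162, minus strand, for Cdk1, at chr13:100786487-100786736, minus strand, for Ccnb1, and at chr11:117848987-117849236, plus strand, for Birc5.
Mki67: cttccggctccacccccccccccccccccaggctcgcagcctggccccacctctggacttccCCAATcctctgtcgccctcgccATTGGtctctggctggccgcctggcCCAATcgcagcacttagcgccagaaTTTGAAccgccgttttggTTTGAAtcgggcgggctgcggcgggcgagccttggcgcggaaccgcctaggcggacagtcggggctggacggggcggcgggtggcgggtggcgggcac
Top2a: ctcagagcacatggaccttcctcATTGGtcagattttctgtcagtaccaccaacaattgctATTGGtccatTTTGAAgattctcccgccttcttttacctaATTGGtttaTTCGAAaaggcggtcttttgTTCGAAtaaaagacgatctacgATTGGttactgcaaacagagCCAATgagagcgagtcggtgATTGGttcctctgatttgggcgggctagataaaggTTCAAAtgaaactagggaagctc
Cdk1: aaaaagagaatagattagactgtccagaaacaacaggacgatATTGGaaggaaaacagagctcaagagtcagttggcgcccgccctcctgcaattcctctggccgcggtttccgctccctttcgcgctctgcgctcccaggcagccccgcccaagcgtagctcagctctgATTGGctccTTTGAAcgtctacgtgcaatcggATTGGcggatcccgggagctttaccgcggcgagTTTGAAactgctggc
Ccnb1: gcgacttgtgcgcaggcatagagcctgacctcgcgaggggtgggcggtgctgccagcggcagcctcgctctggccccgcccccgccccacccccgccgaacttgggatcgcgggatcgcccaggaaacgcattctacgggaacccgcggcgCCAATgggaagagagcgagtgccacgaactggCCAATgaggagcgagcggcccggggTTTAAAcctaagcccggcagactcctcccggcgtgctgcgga
Birc5: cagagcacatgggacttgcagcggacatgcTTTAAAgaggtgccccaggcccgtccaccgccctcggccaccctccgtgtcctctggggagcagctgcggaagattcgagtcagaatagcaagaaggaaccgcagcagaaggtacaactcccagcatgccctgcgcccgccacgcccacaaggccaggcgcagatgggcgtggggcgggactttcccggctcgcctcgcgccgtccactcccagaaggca
The Top2a stretch held 6 CCAAT boxes and 4 CHR matches, Mki67 and Cdk1 each held 3 and 2, and Ccnb1 held 2 CCAAT boxes and 1 TTTAAA. Birc5 held 1 TTTAAA and neither of the other words in this window. The TTTAAA word was added after the sequences had been seen.

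Infarct spots were those with a low share of cardiomyocyte RNA, the UMIs of 12 cardiomyocyte genes over all UMIs outside mitochondrial genes. A spot was taken when this share was under 0.5 times the 90th percentile of its section and it lay in a connected patch of at least 10 such spots. This gave 886 infarct spots at 3 dpi, 1081 in the female-labelled section and 684 in the male-labelled section, each in 1 patch. Cycling spots had 2 or more UMIs of the 5 genes together and zero spots had 0. Zero spots were paired with cycling spots of like depth, where one existed, which left 111, 215 and 125 pairs in the 3 sections. The median UMIs outside mitochondrial genes were 4421, 5579 and 6144 in the paired cycling spots and 4142, 5435 and 5744 in the zero spots, so cycling spots remained slightly deeper in each section.

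**Figure D1:**
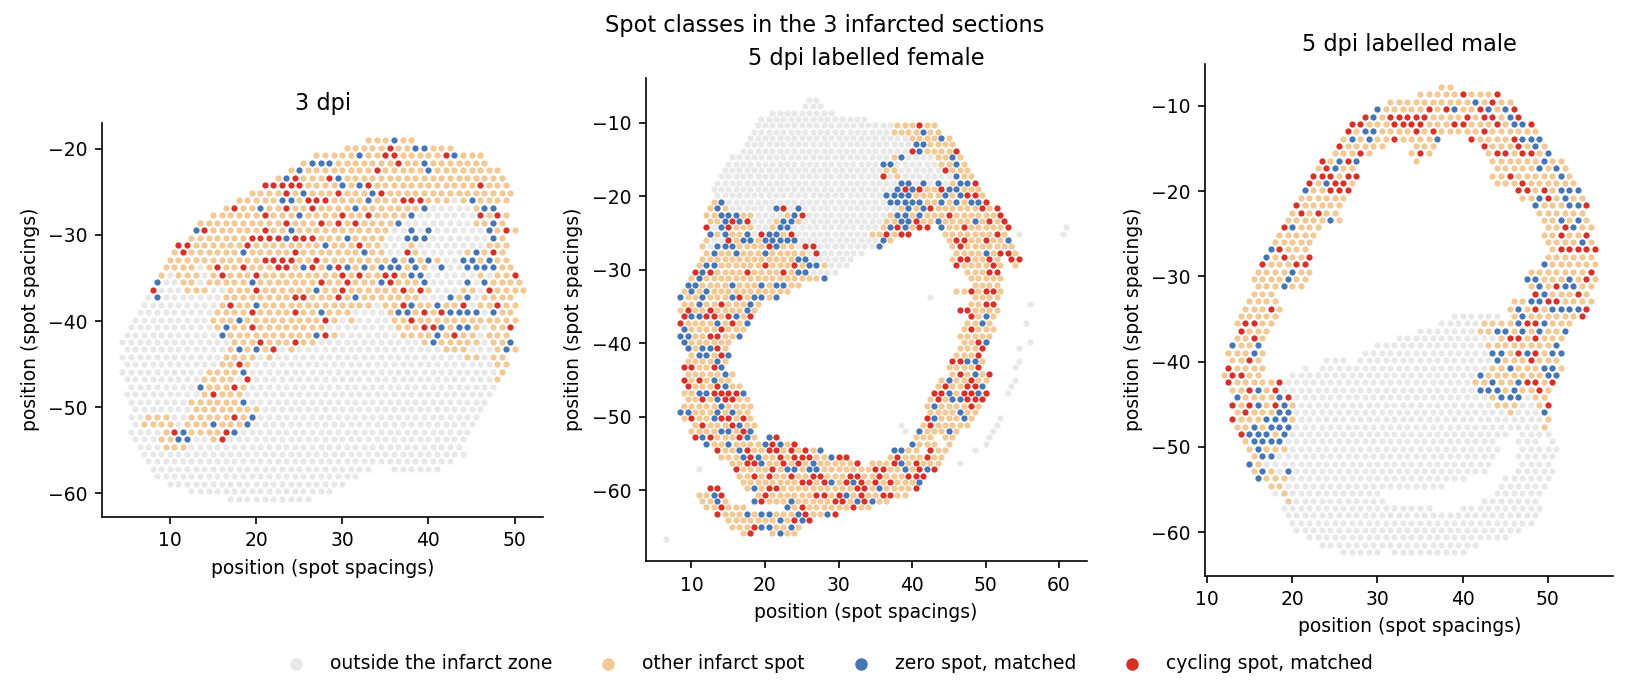
Position of the matched cycling (red) and zero (blue) spots in the 3 infarcted sections, with the other infarct spots in tan and the rest of the tissue in grey, on axes in units of the spacing between spots. Zero spots lay a median of 2, 5 and 6 steps inside the infarct border and cycling spots 5, 7 and 18, at 3 dpi and in the female-labelled and male-labelled sections.

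Before pairing, 53.4% of infarct spots were cycling at 3 dpi (473 of 886, exact 95% interval 50.04 to 56.7). At 5 dpi the share was 49.95% in the female-labelled section (540 of 1081, 46.9 to 53.0) and 51.2% in the male-labelled section (350 of 684, 47.4 to 55.0). Spots with exactly 1 UMI, just outside the threshold, made up a further 21.0%, 22.2% and 23.5%. In the control, 3 of 1166 spots were cycling, 0.257% (0.0531 to 0.750), at a median of 2965.5 UMIs per spot outside mitochondrial genes against 5476, 6946 and 6854 in the infarcts. These shares depend on depth: when spots were thinned to 1551 such UMIs, leaving out 89, 60 and 4 shallower infarct spots and 119 control spots, 11.8% of 797, 9.21% of 1021 and 8.82% of 680 infarct spots were cycling, and 0 of 1047 control spots, which allows up to 0.287% (3 counts of the total) or, by the exact interval, 0.352%. The shares and the levels of the selecting genes follow from the rule and are a description, and the intervals cover counting error only.

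As a level, the 5 genes together made up 417 CPM (counts scaled so that all UMIs outside mitochondrial genes sum to 1000000) in the infarct at 3 dpi and 317 and 318 CPM in the female-labelled and male-labelled sections. Remote spots, more than 4 steps from the infarct, held 87.2, 123 and 196 CPM in the same order, and the control section 14.2 CPM. All 3 infarcts were thus above their own remote tissue and the control. Among the matched cycling spots Mki67 was at 162, 139 and 139 CPM, Top2a at 111, 78.0 and 100.0 CPM, Cdk1 at 118, 152 and 125 CPM, Ccnb1 at 80.0, 47.7 and 46.8 CPM and Birc5 at 175, 130 and 101 CPM. They are 0 in the zero spots by definition.

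The level of the selecting genes differed with distance from the living muscle, which is given with no test. Steps were counted to the nearest kept spot outside the infarct zone. The outer or inner edge of the tissue and spots off the mask were not counted as border, so a spot many steps inside may lie at such an edge. In spots 1 to 2 steps inside the infarct border they summed to 326 CPM at 3 dpi, 139 CPM in the female-labelled section and 133 CPM in the male-labelled section. At 5 to 8 steps the sums were 479, 364 and 308 CPM. More than 8 steps inside, they were 450, 359 and 366 CPM. The ring of 1 to 2 steps was the lowest of the 4 depths in every section. The highest was at 3 to 4 steps at 3 dpi, at 5 to 8 steps in the female-labelled section and beyond 8 steps in the male-labelled section. At 5 dpi the ring of 1 to 2 steps was near or below the remote tissue of its own section.

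**Figure D2:**
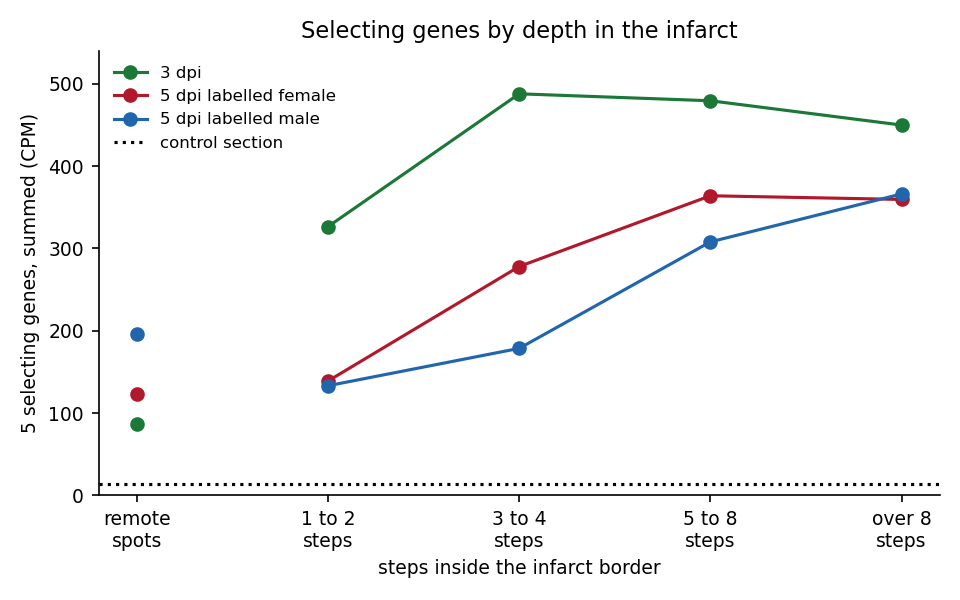
Summed CPM of the 5 selecting genes in the remote tissue and in 4 rings of the infarct, by the number of spot steps inside its border, with 1 line per section and the control section dotted. The ring of 1 to 2 steps is the lowest in each infarct, from 133 to 326 CPM.

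The matched classes differed in place as well. Cycling spots lay a median of 5 steps inside the border against 2 for zero spots at 3 dpi, 7 against 5 in the female-labelled section and 18 against 6 in the male-labelled section. The mean difference was 5.67 ± 5.51 steps (SD, n = 3), deeper in 3 of 3 sections, with an exact two-sided sign-flip p of 0.25, the smallest that 3 sections allow. Their median cardiomyocyte share was 1.53% against 3.06%, 0.156% against 0.662% and 0.168% against 0.869%. Mitochondrial genes gave 9.01% against 15.5%, 4.66% against 8.29% and 2.14% against 5.39% of all UMIs. Zero spots therefore held more heart muscle RNA and more mitochondrial RNA in each section, and the part of either in the differences below was not tested.

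The neighbours of the classes are given with no test. Infarct spots next to a cycling spot held the selecting genes at 429, 348 and 356 CPM, against 390, 264 and 243 CPM next to a zero spot, in the order 3 dpi, female-labelled, male-labelled. Of these neighbours 54.5%, 53.9% and 55.3% were cycling against 49.0%, 42.4% and 40.2%. These shares depend on depth, and the neighbours of cycling spots were deeper in each section. Their medians were 5325, 6866 and 6780 UMIs outside mitochondrial genes, against 4872.5, 6306 and 6402 next to zero spots. Where each zero spot was taken within 3 steps of its cycling spot, the mean difference between the neighbourhoods was 17.8 CPM in place of 78.4 CPM.

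To give each selecting gene a reading that did not choose its own class, the classes were set anew by the other 4 genes and the fifth was tested over all genes with the edgeR quasi-likelihood test, Benjamini-Hochberg adjusted. Every one of the 5 was then higher in cycling spots, in 3 of 3 sections. The share of all genes called higher in these fits was 2.41% without Mki67, 2.74% without Top2a, 2.58% without Cdk1, 2.58% without Ccnb1 and 2.28% without Birc5.

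Of the 5, Top2a had the largest of these log2 fold changes. With classes set by the others it was at 81.2 against 45.4 CPM at 3 dpi, 66.0 against 23.1 CPM in the female-labelled section and 69.5 against 29.1 CPM in the male-labelled section. The fitted log2 fold change was 1.16 ± 0.18 (SE), adjusted p = 3.6e-05. Mki67 was at 123 against 88.8 CPM, 106 against 52.0 CPM and 100.3 against 47.7 CPM, a log2 fold change of 0.79 ± 0.14, adjusted p = 0.00068. Its zero spots at 3 dpi were close to the cycling spots at 5 dpi.

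Cdk1 differed least at 3 dpi, with 92.9 against 78.3 CPM, and more in the female-labelled and male-labelled sections, with 112 against 41.6 CPM and 101 against 58.8 CPM. Its log2 fold change was 0.81 ± 0.17, adjusted p = 0.0017. Ccnb1, the least abundant, was at 48.9 against 17.2 CPM, 32.2 against 16.1 CPM and 37.0 against 20.1 CPM, a log2 fold change of 0.99 ± 0.24 at an adjusted p of 0.006. Birc5 gave 0.85 ± 0.16 on the log2 scale, adjusted p = 5.9e-05, from 103 against 60.6 CPM, 84.6 against 46.5 CPM and 75.3 against 32.9 CPM. Spots that held 2 or more UMIs of any 4 of these genes were thus richer in the fifth. When zero spots were taken within 3 steps, Mki67 (0.56, adjusted p = 0.031) and Top2a (0.79, adjusted p = 0.023) stayed past the threshold, and Cdk1 (0.48), Birc5 (0.66) and Ccnb1 (0.96) did not. DESeq2 also called only 2 of the 5.

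Over all genes, UMIs were summed per class and section and compared with the section as a block. Of 8068 genes tested, 182 were higher in cycling spots, 2.26%, and 464 were lower, 5.75%. The median log2 fold change of all genes was 0.00. Without the block, which removes the differences between hearts, edgeR called 0 genes, with 623 at an unadjusted p under 0.05. DESeq2 with the same block called 24 higher and 166 lower. Leaving out the female-labelled section, which held the most pairs, left 48 higher and 253 lower. With library size alone as the scale in place of TMM, 44.7% of the calls were higher against 28.2%, and the median of all genes was 0.07.

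S phase genes stood higher in cycling spots. Of 51 genes in this list, 31 were abundant enough to test, and 10 of these rose and 0 fell. In edgeR's test 25 were at an unadjusted p under 0.05, and DESeq2 gave 0 adjusted calls and 7 unadjusted. The median log2 fold change of those tested was 0.64. Over all 8068 genes tested, 1589 were at an unadjusted p under 0.05 in edgeR and 518 in DESeq2, with 654 and 124 of them higher. The list as a whole, untested genes included, summed to 1743 against 1160 CPM at 3 dpi, 1490 against 927 CPM in the female-labelled section and 1468 against 876 CPM in the male-labelled section. The control section held 295 CPM. The lowest cycling sum exceeded the highest zero sum.

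Among the S phase genes that rose were makers of the building blocks of DNA and parts of the machinery that starts its copying. Rrm2, a subunit of the enzyme that makes deoxynucleotides, was at 47.6 against 22.1 CPM, 42.4 against 14.4 CPM and 39.2 against 17.3 CPM, a log2 fold change of 1.26 ± 0.24, adjusted p = 0.0011. Its partner Rrm1 was at 101 against 64.4, 85.6 against 60.6 and 88.6 against 46.6 CPM (0.59 ± 0.15, adjusted p = 0.016). Mcm5, part of the ring that unwinds DNA, was at 85.7 against 60.3 CPM, 65.1 against 32.7 CPM and 74.7 against 16.0 CPM (1.05 ± 0.22, adjusted p = 0.0022). For each of the 3 genes the lowest cycling value lay above the highest zero value. Prim1, the subunit of primase that lays the first RNA primer, had the largest rise, 1.86 ± 0.41, adjusted p = 0.0043, on 15.2 against 10.1 CPM, 21.2 against 6.38 CPM and 31.6 against 2.66 CPM. These were few UMIs, 8 against 5, 28 against 8 and 25 against 2. Prim1 was too scarce to test without the female-labelled section, within the distance band and within 3 steps. Uhrf1, which carries DNA methylation over to the new strand, rose by 1.34 ± 0.25, adjusted p = 0.00072, from 30.2 to 51.4 CPM, 15.2 to 48.5 CPM and 13.3 to 41.8 CPM.

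Of the 6 most abundant S phase genes, Rrm1 and Mcm5 passed the threshold and the other 4 missed it. Pcna, the sliding clamp of the DNA polymerases, was at 149 against 107 CPM, 118 against 86.9 CPM and 92.4 against 75.8 CPM, higher in 3 of 3 sections but at an adjusted p of 0.13. Dnmt1, the maintenance DNA methyltransferase, gave 0.46 at an adjusted p of 0.11. Mcm6 and Rfc2, a helicase subunit and a clamp loader subunit, gave 0.38 and 0.39 and were slightly lower in the cycling spots at 3 dpi, 64.8 against 66.4 CPM and 74.3 against 76.4 CPM. Of genes outside the naming rule and picked after their values were seen, Gins2 (1.18), Pclaf (0.79), Mcm3 (0.77), Tk1 (0.68) and Tyms (0.64) complete the 10. Mcm3 was not called with any 1 section left out (adjusted p = 0.056 to 0.24). Without the female-labelled section 1 S phase gene was called, Mcm5, and without the male-labelled section 4, with Prim1 no longer among them (adjusted p = 0.068).

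Genes of G2 and M phase, a list without the selecting genes, also stood higher. Of 70 genes 50 were tested, and 16 rose and 0 fell in the edgeR test. At an unadjusted p under 0.05 there were 30, against 1589 of all 8068 genes. DESeq2 gave 0 adjusted calls with 10 unadjusted, against 518 of all genes. The median log2 fold change was 0.65. Summed over the whole list the level was 2296 against 1589 CPM at 3 dpi, 1895 against 1140 CPM in the female-labelled section and 1754 against 947 CPM in the male-labelled section, with 382 CPM in the control. At 3 dpi both classes lay above the same class at 5 dpi. Leaving out the female-labelled section left 4 calls in place of 16.

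Ube2c, which tags mitotic proteins for destruction, was at 122 against 82.5 CPM, 107 against 57.4 CPM and 97.5 against 46.6 CPM, a log2 fold change of 0.78 ± 0.15, adjusted p = 0.00096. Cks2, a small subunit bound to Cdk1, was at 99.1 against 48.3, 63.6 against 35.1 and 53.2 against 21.3 CPM (0.94 ± 0.18, adjusted p = 0.0011). Spc25, of the kinetochore that ties chromosomes to the spindle, rose by 1.36 ± 0.33, adjusted p = 0.0087, and Cenpf, another kinetochore protein, by 1.29 ± 0.35, adjusted p = 0.02. Both were scarce, from 4.02 to 12.0 CPM in zero spots and from 21.2 to 30.5 CPM in cycling spots, which did not overlap. Without the male-labelled section Cenpf was not called (adjusted p = 0.089).

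Among the more abundant members, the centromeric histone Cenpa gave 0.56 ± 0.15, adjusted p = 0.021, and the chromatin protein Hmgb2 0.57 ± 0.17, adjusted p = 0.033. Hmgb2 was not called with any 1 section left out (adjusted p = 0.082 to 0.17). Bub3, of the spindle checkpoint, and Cks1b missed the threshold at 0.44 and 0.53, adjusted p = 0.13 and 0.093. Outside the naming rule and seen first, Prc1 (1.19), Cdca8 (1.09), Cdc20 (0.98), Ccnb2 (0.98) and Racgap1 (0.95), of the spindle midzone, the chromosome passenger complex, the mitotic destruction machinery, the Cdk1 partners and cytokinesis, rose as well. The lowest cycling value exceeded the highest zero value in 18 of the 31 S phase genes and 25 of the 50 G2 and M phase genes tested, against 9.92% of all genes. The opposite, with all cycling values below all zero values, was seen in 0 of both lists and in 4.04% of all genes.

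Both lists were lowest in spots with 0 selecting UMIs and highest in those with 4 or more. Over all infarct spots, before pairing, the S phase list stood at 1240, 955 and 869 CPM in spots with 0 such UMIs, at 1404, 1093 and 991 CPM with 1, and at 1654, 1251 and 1196 CPM with 2, in the order 3 dpi, female-labelled, male-labelled. With 3 it stood at 1645, 1372 and 1336 CPM, slightly below the level with 2 at 3 dpi. With 4 or more it stood at 1909, 1604 and 1623 CPM. The G2 and M phase list went from 1691, 1178 and 991 CPM with 0 to 2550, 2177 and 2160 CPM with 4 or more, but at 3 dpi it was at 2170 CPM with 2 and 1938 CPM with 3, against 1908 CPM with 1. The step from just outside the threshold (1 UMI) to just inside it (2 UMIs) was upward in every section for both lists, and larger than the step from 0 to 1. Depth moved along with the UMI number, with medians of 2155, 4208 and 5058 UMIs outside mitochondrial genes at 0 and 8716, 10110.5 and 8878 at 4 or more.

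**Figure D3:**
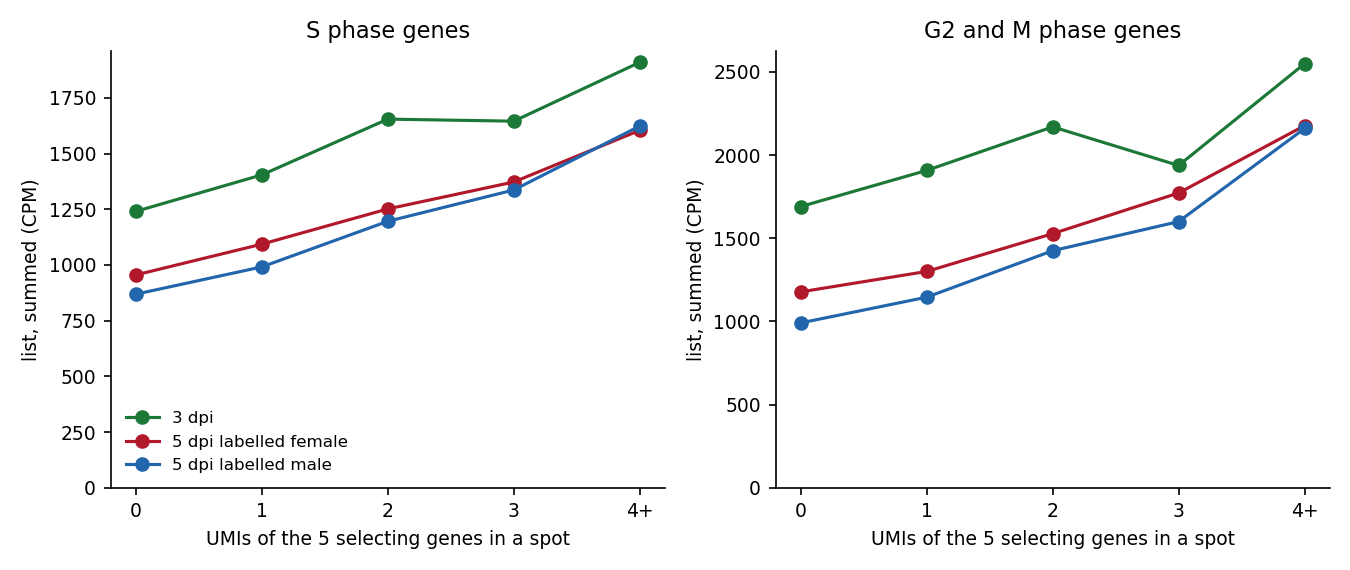
Summed CPM of the S phase list (left) and of the G2 and M phase list without the selecting genes (right) in all infarct spots, by the number of UMIs of the 5 selecting genes in the spot, with 1 line per section. Both lists are lowest in spots with 0 UMIs and highest in spots with 4 or more in every section, while at 3 dpi the step from 2 to 3 UMIs is downward.

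The promoters of these genes were read in the RefSeq table for windows of 250 bases before to 50 after the start. Of the 16 G2 and M phase genes that rose 14 had an entry, of which 13 held CCAAT and 12 held a CHR word on either strand, and 0 held GCGGGAA, the core of an E2F site. Of the 10 S phase genes that rose 9 had an entry, of which 7 held CCAAT, 0 a CHR word and 5 GCGGGAA. Over the promoters of 27025 genes the shares were 41.1% for CCAAT, 21.7% for the CHR words and 5.29% for GCGGGAA. Of the whole lists, 46 of 58 G2 and M phase genes and 6 of 38 S phase genes held a CHR word, and 3 and 18 held GCGGGAA. In the 250 bases before the start alone, 6 of the 14 kept a CHR word, against 19.6% of all genes. GCGGGAA was kept there by 3 of the 9 S phase genes that rose and 13 of 38 in the whole list, against 4.38% of all genes. TTTAAA, as in Ccnb1 and Birc5 above, stood in 4 of the 14 and 5 of the 9, in 10 of 58 and 7 of 38 over the whole lists and in 14.9% of all genes. In the 250 bases before the start it stood in 2 of the 14 and 2 of the 9, against 13.7% of all.

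Of regulators of the cycle, 2 of 21 tested, of 32 listed, rose, and the median was 0.05. The most abundant, Cdk4, Ccng1 and Ccnd3, gave 0.04, -0.19 and -0.03, none past the threshold. The 2 that rose, Foxm1, the transcription factor of G2 genes (1.20 ± 0.32, adjusted p = 0.019), and Ccnd1, cyclin D1 (0.50 ± 0.15, adjusted p = 0.048), lay outside the naming rule. Both lost their calls when the female-labelled section was left out, and Ccnd1 also when either other section was.

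Chromatin and tubulin genes, which dividing cells need in quantity but other cells also use, gave 7 rises and 0 falls among 25 tested of 28, median 0.37, and 3 rises without the female-labelled section. Tubb5, a beta tubulin, was at 1063 against 893 CPM, 1075 against 770 CPM and 1066 against 722 CPM (0.37 ± 0.08, adjusted p = 0.0044). The alpha tubulins Tuba1b (0.25, adjusted p = 0.056) and Tuba1a (0.06, adjusted p = 0.77) did not pass. Outside the rule, Stmn1, which regulates microtubules, rose by 0.80 ± 0.12, adjusted p = 6.7e-05, and the histone variant H2az1 by 0.58 ± 0.08, adjusted p = 5.1e-05. Of the genes with the largest rises that are in no list, Rcc1, the exchange factor of the GTPase Ran, rose by 1.68 ± 0.30 (adjusted p = 0.00054), Ccnf, a cyclin-like ubiquitin ligase subunit, by 1.24 ± 0.34 (adjusted p = 0.022) and Sfxn1, a mitochondrial serine carrier, by 1.22 ± 0.27 (adjusted p = 0.0049). Without the female-labelled section, Tubb5, Ccnf and Sfxn1 were not called.

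Of genes for ribosome making and Myc targets, 2 of 23 tested of 24 rose, 0 fell, and the median was 0.28. Eif4a1, an RNA helicase of translation initiation, was at 926 against 668 CPM, 922 against 652 CPM and 816 against 624 CPM (0.39 ± 0.08, adjusted p = 0.0018). Without the female-labelled section Eif4a1 was not called (adjusted p = 0.12) and 1 gene of the list was, as also without the male-labelled section, and DESeq2 called 0 (adjusted p = 0.075 for Eif4a1). Eif5a and Npm1 gave 0.16 and 0.23, neither past the threshold.

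The general macrophage list gave 1 rise among 8, the recruited monocyte list 2 among 10 and the list of lipid-associated macrophages, cells that take up lipid and debris, 6 rises and 1 fall among 12. Resident macrophage genes gave 0 calls among 7 tested of 10, with 0 at an unadjusted p under 0.05 in edgeR and in DESeq2. The medians were 0.27, 0.38, 0.31 and 0.05. Beside these counts, 2.26% of all genes tested were called higher and 5.75% lower. Without the female-labelled section 0 recruited monocyte genes were called.

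Spp1, osteopontin, a secreted matrix protein of macrophages in injured tissue, was at 2580 against 1559 CPM at 3 dpi, 3257 against 1523 CPM in the female-labelled section and 1959 against 705 CPM in the male-labelled section, and was listed at 0 in the control. All cycling values lay above all zero values, with a log2 fold change of 1.02 ± 0.10, adjusted p = 1.1e-07. Cd68, a lysosomal membrane protein, was at 389 against 225, 484 against 281 and 482 against 289 CPM (0.70 ± 0.09, adjusted p = 1.1e-05). Ctsb, a lysosomal protease, gave 0.35 ± 0.07, adjusted p = 0.0016, and outside the rule Mmp12 (0.81), Gpnmb (0.72), Fabp5 (0.65) and Lgals3 (0.48) rose too, while Lpl, lipoprotein lipase, fell (-0.67).

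Several abundant macrophage genes differed by less than the threshold. Lyz2, lysozyme, was at 3016 against 2999 CPM, 5282 against 4656 CPM and 5348 against 4151 CPM (0.12, adjusted p = 0.39). Apoe, Ctsd and Csf1r gave -0.14, 0.11 and -0.07, and the complement genes C1qb, C1qa and C1qc 0.07, -0.06 and 0.05. Plac8, of recruited monocytes, gave 0.51 ± 0.15, adjusted p = 0.034, and lost the call without either 5 dpi section. The matrix protein Thbs1 gave 0.19. Arg1, of the same list, gave -0.13 (adjusted p = 0.83), and its sections did not point one way. Its log2 ratios of CPM were -0.62 at 3 dpi, -0.35 in the female-labelled section and 2.27 in the male-labelled section. With zero spots from the same distance band Arg1 was called lower in the edgeR test (-0.56, adjusted p = 0.0023). Without the male-labelled section its log2 fold change was also -0.56.

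Of the neutrophil genes, 2 of 4 tested, of 8 listed, rose and 0 fell. S100a8 and S100a9 encode calprotectin, the main cytosolic protein of neutrophils. S100a8 was at 158 against 98.5 CPM, 127 against 65.4 CPM and 118 against 27.9 CPM (1.05 ± 0.17, adjusted p = 0.00023), and S100a9 at 145 against 86.5 CPM, 128 against 62.2 CPM and 162 against 63.8 CPM (0.996 ± 0.143, adjusted p = 4.2e-05). Mmp9 was higher in 3 of 3 sections without passing (0.64, adjusted p = 0.20). The list summed to 400, 314 and 356 CPM against 268, 170 and 122 CPM. The more specific receptors were scarce: Csf3r was at 12.0 to 38.0 CPM and not called, and Cxcr2 reached 2.27 CPM at most.

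Of dendritic cell and antigen presentation genes 0 of 5 tested passed, with 1 at an unadjusted p under 0.05 in edgeR and 0 in DESeq2. Over all genes tested 2.26% were called higher and 5.75% lower, so 0 calls in so short a list say little. Cd74, H2-Ab1 and H2-Aa gave -0.00, -0.10 and -0.05. Lymphocyte genes were too low for the test, with Cd79b, Cd79a and Nkg7 between 2.01 and 16.0 CPM and the list at 24.1 to 45.2 CPM. Of interferon-induced genes 1 of 12 rose, the antiviral gene Rsad2 (0.79, and -0.06 with zero spots within 3 steps; not called without the female-labelled section, adjusted p = 0.11, nor by DESeq2), and Ifitm3, Ifi27l2a and Bst2 gave 0.15, -0.12 and 0.19.

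**Figure D4:**
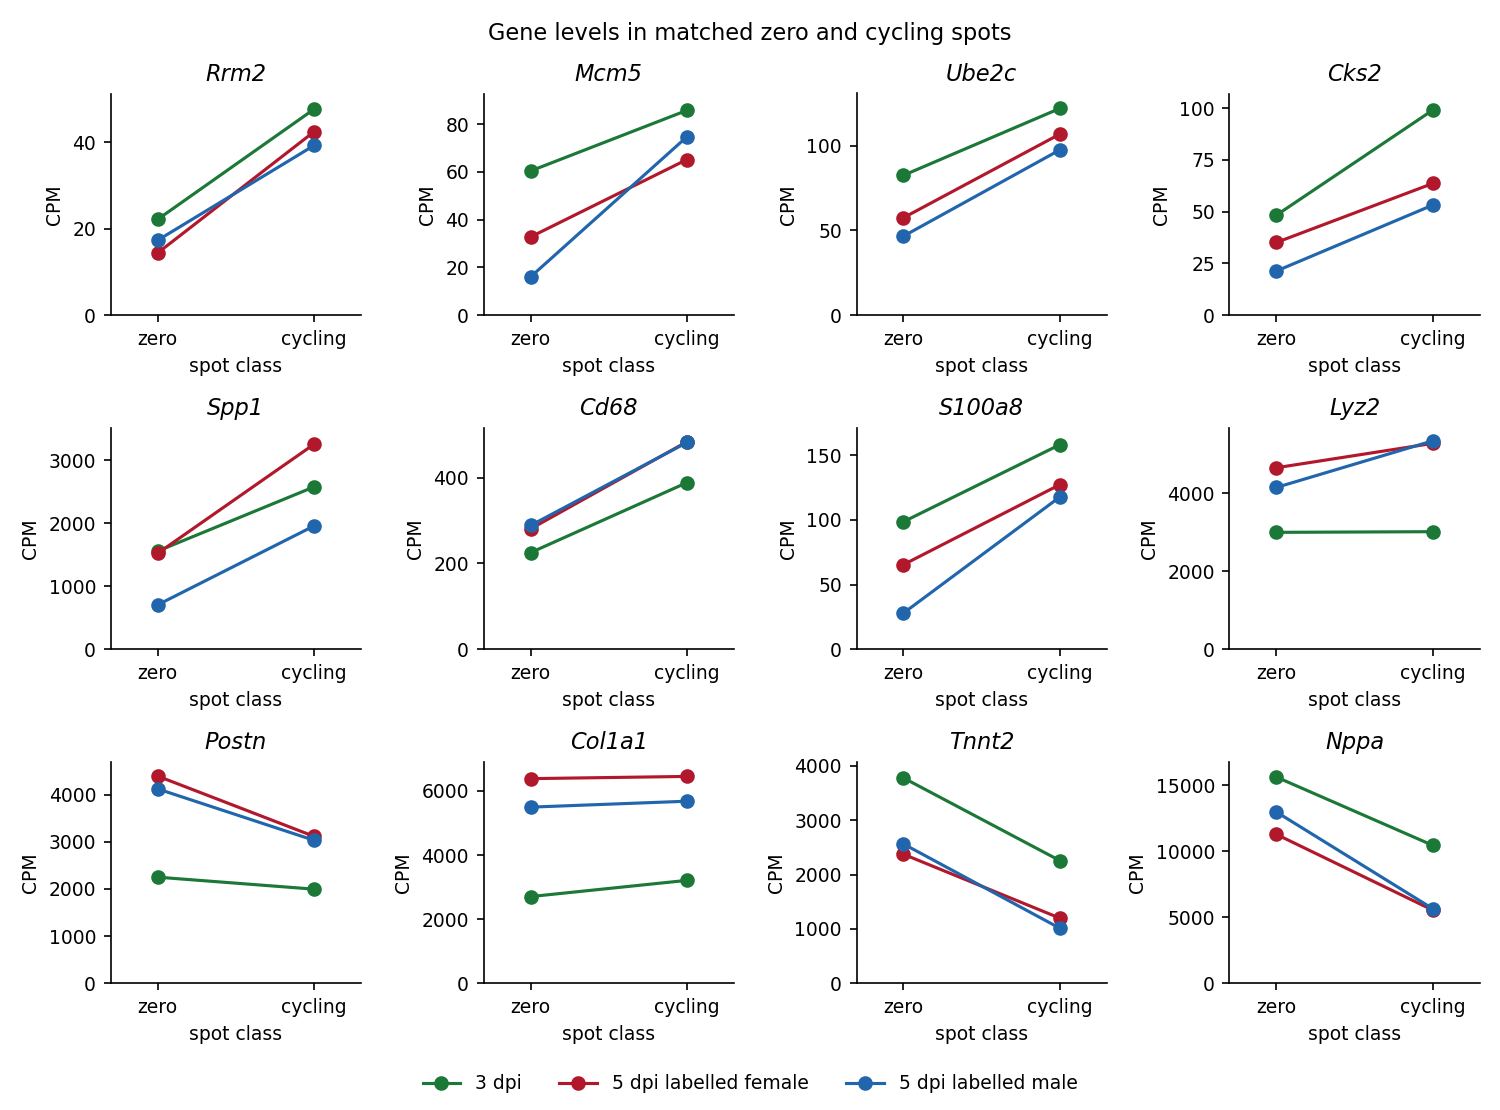
CPM of 12 genes in the matched zero and cycling spots, with 1 line per section and each axis starting at 0. Rrm2, Mcm5, Ube2c, Cks2, Spp1, Cd68 and S100a8 go up in all 3 sections, Postn, Tnnt2 and Nppa go down in all 3, and Lyz2 and Col1a1 differ by less than the threshold.

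The abundant collagens of fibroblasts missed the threshold. Col1a1 stood at 3212 against 2707 CPM, 6452 against 6383 CPM and 5679 against 5494 CPM (0.03 ± 0.06, adjusted p = 0.87), with Col1a2 at 0.05 and Col3a1 at -0.13. Of 10 fibroblast genes 0 rose and 2 fell, Dcn (-0.34) and Mfap5 (-0.48), both small proteins of the matrix, and the median was -0.18. Dcn was not called without the female-labelled section. The section sums of the list were 11788, 22056 and 21188 CPM in cycling spots against 10812, 22753 and 21513 CPM.

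Activated fibroblast genes gave 2 rises and 4 falls among 14, with a median of -0.11, and 0 rises and 1 fall without the female-labelled section. Postn, periostin, secreted by activated fibroblasts, was at 1997 against 2250 CPM, 3115 against 4392 CPM and 3031 against 4120 CPM (-0.45 ± 0.07, adjusted p = 0.0001), lower in 3 of 3 sections. Fn1, fibronectin, gave 0.06. Acta2, the actin of myofibroblasts and smooth muscle, was higher at 722 against 563, 1898 against 1243 and 1509 against 1186 CPM (0.38 ± 0.08, adjusted p = 0.0022), as was, outside the rule, the matrix protein Tnc (0.41). Aspn (-0.52), Ptn (-0.61) and Ddah1 (-0.44) fell. Without the male-labelled section the list gave 2 falls, with Ddah1 at -0.26 (adjusted p = 0.47) and Ptn at an adjusted p of 0.053. In the matrix list 1 of 22 genes rose and 3 fell, the collagen VI chains Col6a1 (-0.56) and Col6a2 (-0.54) and the collagen VIII chain Col8a1 (-0.30, and 0.04 with zero spots within 3 steps). Without the female-labelled section this list gave 0 rises and 1 fall, as in DESeq2, and without the male-labelled section 0 rises and 2 falls. Col8a1 was not called with any 1 section left out (adjusted p = 0.07 to 0.21), nor Col6a1 without the female-labelled one (0.076).

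Endothelial genes gave 0 calls among 12 and the angiogenic endothelial list 0 among 9 tested of 12. At an unadjusted p under 0.05 there were 1 and 5 in edgeR, and 0 and 0 in DESeq2. Of the 5 angiogenic genes, 1 was higher. Of all 8068 genes 2.26% were called higher and 5.75% lower, and 1589 were at an unadjusted p under 0.05 in edgeR. Fabp4, a fatty acid carrier of capillaries, gave -0.19, Eng 0.06 and Egfl7 -0.02, and Col4a1, Col4a2 and Cd34 gave -0.22, -0.24 and -0.04. Of 8 mural genes 2 fell, with a median of -0.30. Rgs5, of pericytes, was at 112 against 139 CPM, 142 against 244 CPM and 162 against 275 CPM (-0.75 ± 0.12, adjusted p = 9.3e-05), and Kcnj8, a channel of pericytes, gave -1.04 (not called without the male-labelled section). Pdgfrb and Notch3 gave -0.07 each. The mesothelial gene Msln was at 1.91 to 43.2 CPM in cycling spots and 4.02 to 57.4 CPM in zero spots (-0.65, adjusted p = 0.155). Schwann cell genes summed to at most 8.0 CPM and were not tested.

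The 5 genes of red cells each had higher CPM in cycling spots in 3 of 3 sections, and 1 of them, Hbb-bs, passed (0.28 ± 0.08, adjusted p = 0.028; 0.49 without the male-labelled section), on 2292 against 2065 CPM, 11426 against 9782 CPM and 7308 against 4597 CPM. The direction turned when spots were matched on total UMIs, where Hbb-bs gave -0.20 and Hba-a1 -0.29, the latter past the threshold at an adjusted p of 0.041. Hba-a1 and Hba-a2 gave 0.24 and 0.27 in the main comparison. With zero spots nearest in cardiomyocyte share Hbb-bs gave 0.10 (adjusted p = 0.67).

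The cardiomyocyte genes had been used to outline the infarct, though not to part the classes, and 12 of 12 fell, with a median of -1.20, also when any 1 section was left out. Tnnt2, cardiac troponin T, was at 2256 against 3775 CPM, 1199 against 2373 CPM and 1014 against 2562 CPM (-1.09 ± 0.08, adjusted p = 1.3e-08). Actc1, cardiac actin, gave -1.19 ± 0.10 and Mb, myoglobin, -1.40 ± 0.11, each at an adjusted p of 1.3e-08. The list summed to 18656, 5859.5 and 4940 CPM in cycling spots and 30745, 13450 and 14395 CPM in zero spots, far below the 101341 CPM of the control in both. In spots that cover several cells, fewer muscle cells and less RNA per muscle cell cannot be told apart.

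The stress genes of border cardiomyocytes fell as well, 8 of 8 with a median of -1.01. Nppa, the atrial natriuretic peptide that stressed ventricle makes, was at 10460 against 15633 CPM, 5551 against 11291 CPM and 5658 against 12988 CPM (-1.01 ± 0.08, adjusted p = 1.3e-08), with 389 CPM in the control. Ankrd1 and Sprr1a gave -1.02 and -0.76. Acta1, skeletal actin re-expressed in stressed muscle, gave -1.63 ± 0.14, adjusted p = 3.3e-08.

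The genes with the largest falls were mostly those of muscle. Ankrd23 (-1.95 ± 0.37) and Alpk2 (-1.76 ± 0.26), a titin-binding protein and a kinase of the heart, Nmrk2 (-1.67 ± 0.24), a kinase of NAD synthesis, and Slc2a4 (-1.59 ± 0.24), the insulin-regulated glucose carrier, all fell in 3 of 3 sections. Adjusted p-values of these 4 ran from 4.9e-05 for Nmrk2 to 0.0011 for Ankrd23. Ptgds, prostaglandin D synthase, gave -1.57 ± 0.19, on 72.4 against 157 CPM, 30.3 against 71.0 CPM and 19.0 against 110 CPM. Ccl21a, a chemokine of lymphatic vessels, gave -1.65 ± 0.24, on 11.4 against 42.2 CPM, 13.6 against 47.8 CPM and 21.5 against 49.2 CPM, but +0.32 when spots were matched on total UMIs.

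Glycolysis genes gave 0 rises and 7 falls among 15, with a median of -0.34. The abundant enzyme Gapdh was at 3378 against 4024 CPM, 2814 against 3369 CPM and 2972 against 4086 CPM (-0.39 ± 0.07, adjusted p = 0.00027), and Aldoa gave -0.46 ± 0.07, adjusted p = 0.00012. Pkm gave 0.01. Gapdh and Aldoa were at 4840 and 2871 CPM in the whole control section. The part of heart muscle RNA in the falls of this list was not tested. With the female-labelled section left out 2 glycolysis genes were called. Of genes of hypoxia and vessel growth 1 of 12 tested, of 14 listed, rose and 2 fell, Bnip3 (-0.98) and Egln3 (-1.11), the latter not called without the male-labelled section (adjusted p = 0.15). DESeq2 called 0 falls in this list. Hmox1, heme oxygenase, was at 604 against 527 CPM, 685 against 360 CPM and 330 against 177 CPM (0.61 ± 0.12, adjusted p = 0.00091). Without the female-labelled section its log2 fold change was 0.44 and it was not called. P4ha2 gave 0.04 and Ddit4 -0.30. Of growth factors and receptors 1 of 21 tested, Spp1 again, rose and 1 fell, Tgfb3, at -0.49 ± 0.12, adjusted p = 0.0088 (0.15 without the male-labelled section).

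Since cycling spots lay deeper, the comparison was repeated with zero spots from the same distance band, 1 to 2, 3 to 4 or over 4 steps. The median distance was then 2 against 2, 6 against 7 and 15.5 against 11 steps in cycling against zero spots of the 3 dpi, female-labelled and male-labelled sections. The median share of UMIs from cardiomyocyte genes was 1.96% against 2.92%, 0.198% against 0.224% and 0.190% against 0.325%. On 97, 182 and 112 pairs and 7675 genes, 48 genes were higher, 0.625%, and 111 lower, 1.45%. Of S phase genes 4 of 28 rose and of G2 and M phase genes 3 of 45. The medians were 0.52 and 0.50. Cardiomyocyte genes fell in 10 of 12, with a median of -0.43, and border cardiomyocyte genes in 7 of 8, with -0.47. Of 5 red cell genes 0 passed in this edgeR fit, with 0 at an unadjusted p under 0.05 and a median of 0.07.

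A closer comparison took each zero spot within 3 steps of its cycling spot. It used 79, 144 and 92 pairs, whose median depth in the infarct was 3 against 2, 6 against 6 and 10 against 9.5 steps and whose median cardiomyocyte share was 2.11% against 2.95%, 0.190% against 0.235% and 0.232% against 0.541%. Of 7163 genes 8 were higher, 0.112%, and 17 lower, 0.237%. These held 4 of 5 red cell genes, 2 of 12 cardiomyocyte and 5 of 8 border cardiomyocyte genes. Spp1 (0.44, adjusted p = 0.00105), Cd68 (0.44, adjusted p = 0.0305), and among haemoglobin genes Hbb-bs (0.44, adjusted p = 0.002), Hba-a1 (0.41) and Hba-a2 (0.43), were higher. Nppa (-0.42, adjusted p = 0.00032), Tnnt2 (-0.43, adjusted p = 0.002), Sprr1a (-0.57, adjusted p = 0.002) and Ankrd1 (-0.36, adjusted p = 0.013) were lower. In this edgeR fit 0 of 25 S phase genes and 0 of 38 G2 and M phase genes passed. At an unadjusted p under 0.05 there were 4 and 15, against 549 of all 7163 genes. The medians of the 2 lists were 0.30 and 0.48, beside -0.01 for all genes. S100a8 and S100a9 gave 0.47 and 0.41, and Postn -0.04, none past the threshold.

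**Figure D5:**
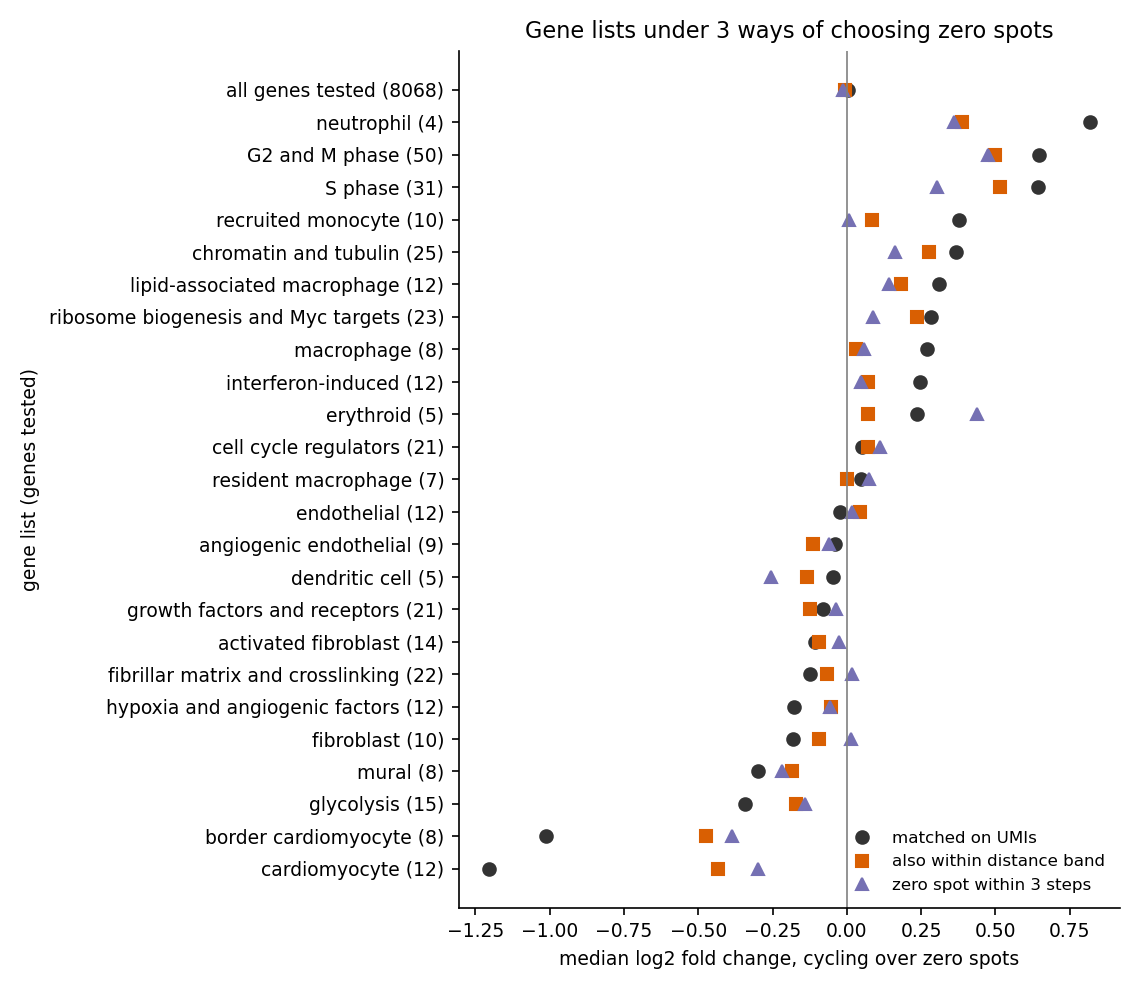
Median log2 fold change of the genes tested in each list with at least 4 of them, cycling over zero spots, with the number tested in the main comparison in brackets, for zero spots matched on UMIs (circles), also on distance band (squares) and within 3 steps (triangles). The cardiomyocyte median moves from -1.20 to -0.43 and -0.30, the G2 and M phase median from 0.65 to 0.50 and 0.48, and all genes stay at 0.00 to -0.01.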

How the data were processed

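The authors deposited a count matrix per section, UMIs per gene and spot, with spot positions and tissue flags. They were made with Space Ranger 1.3.1, per the file headers. The submitters' processing notes give build mm10, while the study's methods name another, Ensembl-based reference with the GFP gene added, so the build is unsettled and no coordinates were taken from the files. From these counts, with Python 3.11.15, NumPy 2.4.6, SciPy 1.17.1 and pandas 2.3.3, spots under tissue with at least 500 UMIs were kept and classed as described. Zero and cycling spots were paired within 0.1 on the log scale of UMIs outside the 13 mitochondrial genes. UMIs were summed per class and section and tested in R 4.3.3 with edgeR 4.0.16 (TMM, filterByExpr, quasi-likelihood test, Benjamini-Hochberg adjusted, threshold 0.05), with DESeq2 1.42.0 as an alternative. The pairing comes from the design: both classes of a pair come from 1 section of 1 heart, so section was a block. For the test of a selecting gene, the other 4 set the classes. The code was tested on simulated data. Thinning drew UMIs at random without replacement (seed 7). Intervals are exact (Clopper-Pearson, 95%) and, like the limit of 3 counts used where a share was 0, cover counting error only. Figures used matplotlib 3.10.9. Promoters came from the RefSeq table, which holds 32851 for 27025 genes.

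The members and gene lists were chosen with earlier results of these data known. Genes were named by this rule: the 5 selecting genes, the 6 most abundant of the S and of the G2 and M list, the 3 most abundant of every other list, and the 8 highest and 8 lowest fold changes among calls whose 3 sections pointed one way and whose mean reached 20 CPM in a class. Not every gene this rule names is reported here. Doublets do not apply to spots, which hold several cells.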

Additional observations from a re-analysis of the deposited data

Results flagged for a closer look

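In the comparison of cycling with zero spots some values pointed one way at 3 dpi and the other way in both 5 dpi sections. With 1 section at 3 dpi these differences were not tested. All values here are log2 ratios of cycling over zero spots, in the order 3 dpi, female-labelled and male-labelled 5 dpi section. They were scaled by UMIs outside mitochondrial genes and not by TMM. The medians of all genes were 0.068, 0.055 and 0.048, so ratios near 0 show no clear direction.

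Among cell cycle genes, Mcm6 gave -0.036, 0.75 and 0.30 and Rfc2 gave -0.041, 0.87 and 0.28. Among myeloid genes, Csf1r, the receptor that macrophages need to live, gave -0.52, 0.03 and 0.26. Plac8 gave -0.078, 0.72 and 0.84, Thbs1 -0.044, 0.39 and 0.23, and C1qa -0.027, 0.00 and 0.05. At 3 dpi Plac8 rested on 61 against 61 UMIs and Mcm6 on 34 against 33. The C1qa ratios at 5 dpi were close to or below the medians of all genes. The median of the resident macrophage list gave -0.027, 0.11 and 0.28. The other way round, Apoe gave 0.019, -0.20 and -0.03 and Cd74, of antigen presentation, gave 0.46, -0.12 and -0.01.

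Of the stromal genes that turned sign in this way, Col3a1 gave 0.032, -0.14 and -0.07, Col4a1 0.10, -0.22 and -0.30, Fabp4 0.14, -0.33 and -0.14, and the pericyte receptor Notch3 0.67, -0.13 and -0.21. The stress gene Ddit4 gave 0.52, -0.43 and -0.33, while the interferon-induced gene Ifi27l2a gave -0.32, 0.08 and 0.07. The list medians were 0.26, -0.00 and -0.29 for activated fibroblast genes, 0.19, -0.28 and -0.31 for hypoxia and angiogenic factors and 0.10, -0.11 and -0.07 for fibrillar matrix and crosslinking.

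Outside the spots used, 623 spots of the male-labelled section that the tissue flags put off the tissue held 619 UMIs of the 5 selecting genes, 278 CPM, against 268 CPM over all kept spots of the same section and 14.2 CPM in the control section.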

How the results depend on the processing

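The 646 genes that differed became 190 with DESeq2, 415 with no filter on low counts, 1126 with no matching, 326 with cycling at 1 or more UMIs, 217 at an infarct limit of 0.4, 159 within the distance band and 25 with zero spots within 3 steps, and 301 to 777 when 1 section was left out. The 10 S phase genes became 0 with DESeq2, 5 with no filter, 19 with no matching, 4 within the band, 0 within 3 steps, 3 at 1 or more UMIs, 1 at a limit of 0.4 and 16 at 0.6, and 1 to 11 with 1 section left out. The 16 G2 and M phase genes became 0 with DESeq2, 9 with no filter, 36 with no matching, 3 within the band, 0 within 3 steps, 10 when zero spots nearest in cardiomyocyte share were taken (medians still 1.56% against 2.91%, 0.119% against 0.424% and 0.187% against 0.485%), 3 at 1 or more UMIs and 6 at a limit of 0.4, and 4 to 18 with 1 section left out. Of the 5 selecting genes tested by the other 4, DESeq2 called 2, the comparison within 3 steps 2, and 4 to 5 were called with 1 section left out. Without the block for the pairing by section, 0 genes were called in all, in both lists and among the selecting genes. The test by the other 4 was not run for classes set by Mki67, Top2a and Cdk1. The neighbourhood difference of 78.4 CPM became 17.8 CPM within 3 steps. The position difference of 5.67 steps was 4.33 to 5.17 under its alternatives. Shares of cycling spots became 11.8%, 9.21% and 8.82% when thinned, 37.8%, 33.5% and 33.8% at 3 or more UMIs and 74.4%, 72.2% and 74.7% at 1 or more, and the 3 dpi share was 57.8% at a limit of 0.4. Directions turned for Ccl21a (0.32), Hbb-bs (-0.20) and Hba-a1 (-0.29) when matched on total UMIs, for Hbb-bs (-0.11) with classes set by Mki67, Top2a and Cdk1, and for Col8a1 (0.040) and Rsad2 (-0.059) within 3 steps. The cause was not tested. A single section at 3 dpi, spots of several cells and 2 to 3 selecting UMIs in most cycling spots limit what depth can show.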
